A study of Drosophila melanogaster with 15 samples.

Results

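CREB, its coactivators CRTC and CBP, and the related bZIP factors CrebA, Atf-2 and crc are themselves encoded by 6 fly genes, and these genes were examined here as targets. The members were the rows of the 6 deposited ChIP-seq lists whose gene symbol was CrebB-17A (also searched as CrebB), CrebA, Crtc, nej, Atf-2 or crc. They gave 105 of the 58652 rows and 6 of the 7766 genes named in any list. CREB sites were listed at 4 of the 6 genes, compared with 32.7% of all genes named in any list. CRTC sites were listed at 5, compared with 21.5%. Under their own symbol, 4 genes carried acetylation peaks of both marks. Peaks of the single marks were listed at 65.8% (H3K9Ac) and 76.1% (H4K16Ac) of all named genes, and the share with both was not computed. No row was spelled CrebB.

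CREB is a basic leucine zipper (bZIP) protein that binds cAMP response elements. Kinases such as PKA phosphorylate it, and it then recruits the acetyltransferase CBP, whereas CRTC is held in the cytoplasm in its phosphorylated form and joins CREB on DNA after dephosphorylation. Acetylation of histone H3 at lysine 9 (H3K9Ac) and of histone H4 at lysine 16 (H4K16Ac) are marks of open, active chromatin. In flies, CREB activity in the mushroom bodies, the brain structure for olfactory memory, is known for its part in long-term memory.

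The material was mushroom body (MB) nuclei of flies labelled as strain CS10 (the study's control line is w(CS10)), captured from pooled heads through a FLAG-KASH tag on the nuclear membrane that was expressed from the MBp-LexA driver in all groups. H3K9Ac and H4K16Ac were each profiled in 3 libraries of naive flies and 3 libraries of flies taken 1 day after spaced training, an odour paired repeatedly with electric shock with rest intervals. CREB and CRTC each had 1 labelled library, made after spaced training, and the 1 input library was from the naive group, so that binding at the members could not be compared between training groups. Replicate and naive libraries of both factors, which the study describes, were not analysed here. The driver labels Kenyon cell classes unequally according to the study, and the values are sums over these cells.

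The lists used here held 4803 CREB sites, 3002 CRTC sites, 23378 H3K9Ac peaks, 24152 H4K16Ac peaks, 1889 windows listed as increased for H3K9Ac after training and 1428 for H4K16Ac. The lists of increased windows are longer than the sets of regions that the study describes as significantly increased, and the CRTC list is shorter than the set of sites it describes, so being listed or not is a property of these files. Each peak table was made of 3 successive runs of rows sorted over the whole genome. The runs carry no sample name and are called run 1, run 2 and run 3 here, without a training group. No list gives read counts, the depth per library was not analysed here, and the part that depth plays in a missing row was not tested. As a check of the tissue label, peaks of each mark were listed for 7 of 10 mushroom body markers, among them ey, toy and Fas2 in both marks. Of all genes named in any list, 65.8% had an H3K9Ac peak and 76.1% an H4K16Ac peak. The mushroom body count was near these shares and does not by itself bear out the label. H3K9Ac was missing at sNPF, Imp and rut, and H4K16Ac at dac, sNPF and DopR. Of 5 general neuronal markers 3 had an H3K9Ac peak and 2 an H4K16Ac peak, with none for nSyb and Cha, and none of 3 muscle and 3 fat body markers had either. Of 5 glial markers 2 had an H3K9Ac peak and 3 an H4K16Ac peak, with none for repo, and of 4 photoreceptor markers 1 and 2 had one. The part that such nuclei play at the members was not tested.

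CrebB-17A, the gene of dCREB2, was the member with most binding sites. It had 8 CREB sites and 6 CRTC sites, spread over chrX:18260094-18268768 (dm3, the build of all coordinates here). The enrichment factor, the authors' ratio of ChIP reads to background over the enriched region that holds a site, was 6.48 at the first and second CREB site. It was 7.57 at the third and 4.29 at the fourth. These 4 sites lay at listed distances of -562, -276, 577 and -37 bp from a transcription start site (TSS), a negative distance being upstream. The fifth and sixth site, at -151 and 42 bp, shared the factor of 10.32, the highest at this gene, as the factor is given per enriched region and not per site. The last pair lay 1184 and 2540 bp downstream of the start at 18266156, with factors of 6.25 and 9.34. Among the 2536 genes with a CREB site, 38 had at least 8 sites and 58.0% had 1, and 522 genes had a higher maximum factor. CrebB-17A thus stood apart by its number of sites and less by their enrichment.

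The listed distances placed these sites against 5 start sites of CrebB-17A in 2 clusters. The upstream cluster comprised start sites at 18260732 and 18260919, and the downstream cluster at 18265029, 18265436 and 18266156. The strongest CREB sites straddled the start at 18265436. CRTC was found beside CREB in both clusters. Of the 6 CRTC sites, 5 lay next to a CREB site, with gaps of 28, 0, 0, 2 and 0 bp. The remaining CRTC site, 1873 bp downstream of the start at 18260919 with a factor of 4.31, was 1212 bp from the nearest CREB site. The CRTC factors were 6.27, 5.94, 4.31, 6.53, 6.53 and 6.86 in order along the gene, and 27 of the 1671 genes with a CRTC site had more sites.

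**Figure D1:**
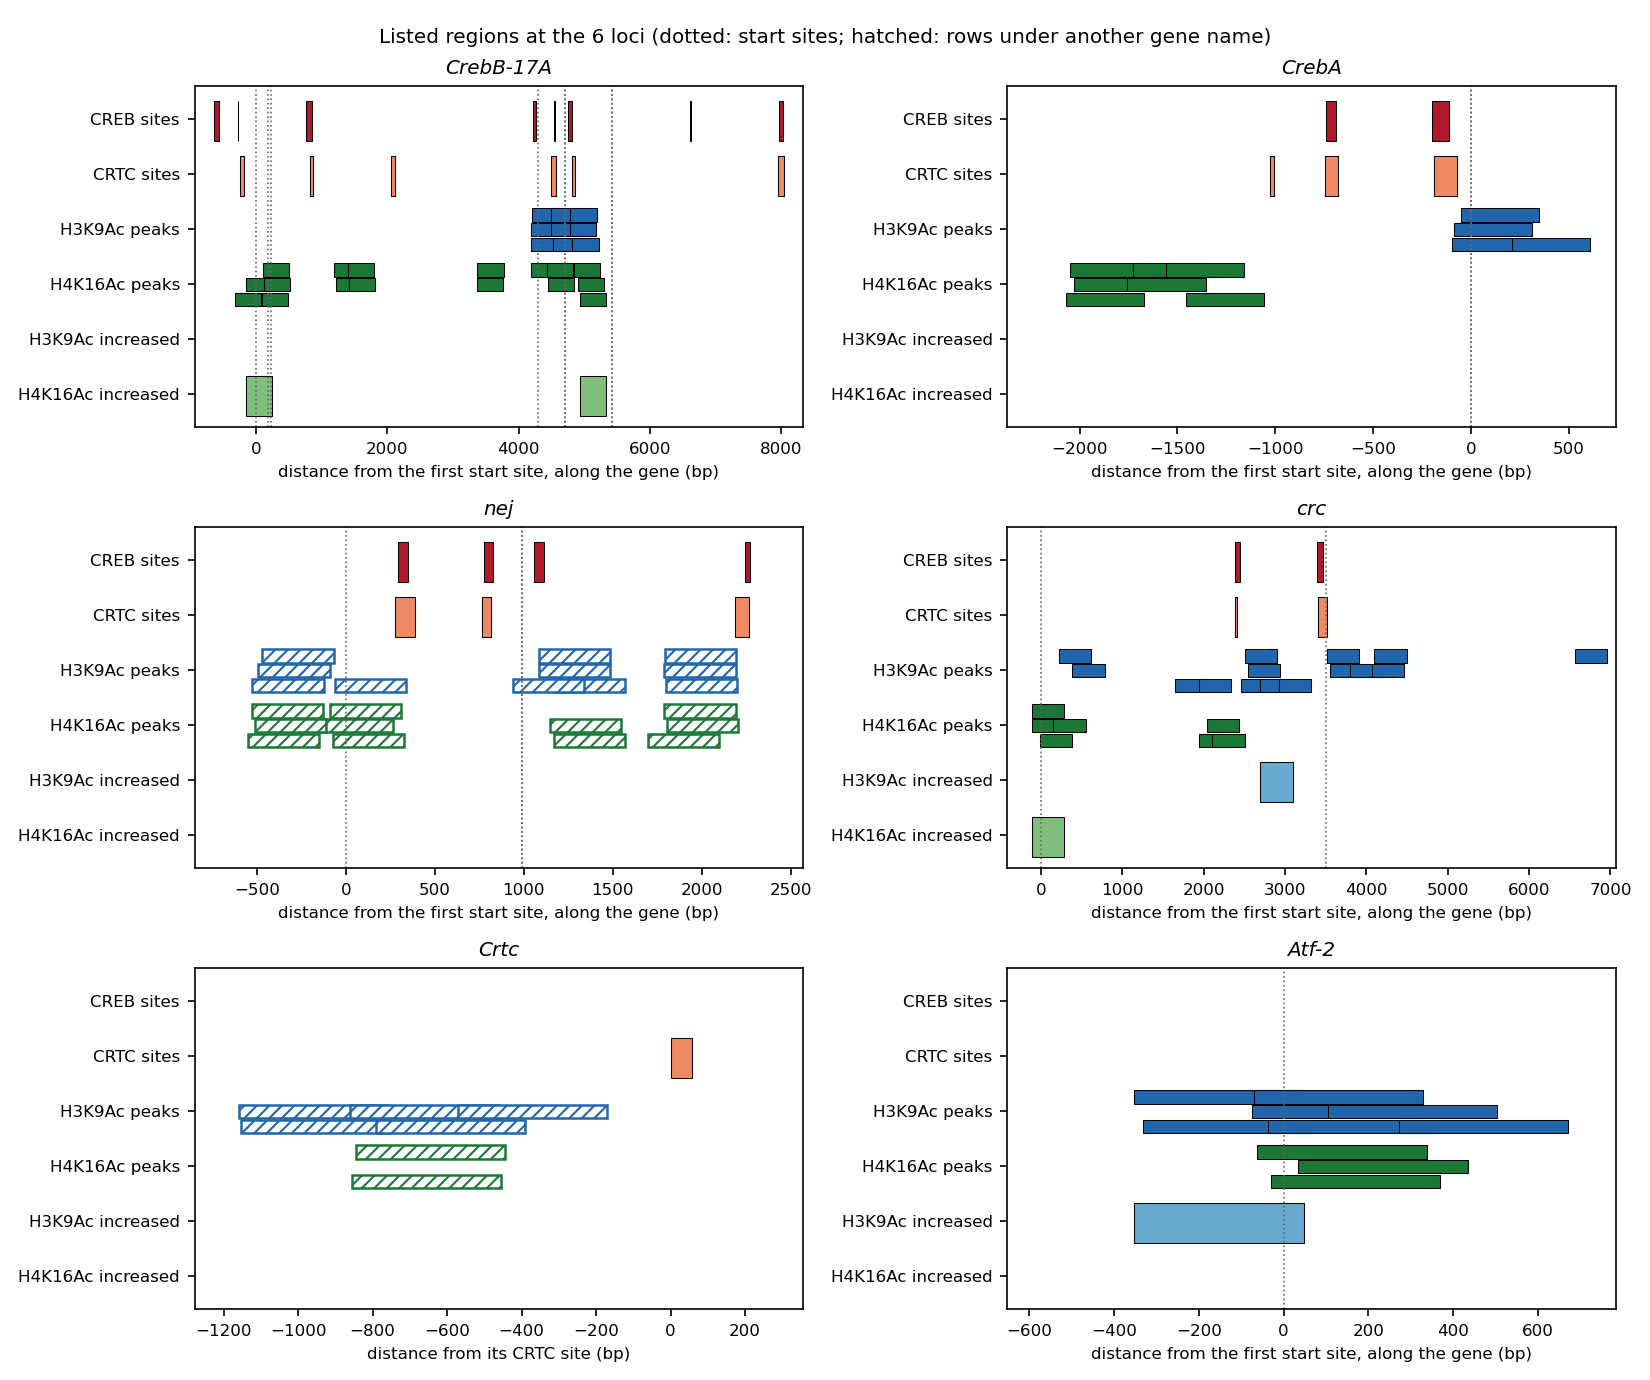
Listed regions at the 6 loci, with distance in bp along the gene from its first start site on the x axis (for Crtc, distance from its CRTC site along the chromosome) and 1 track per list. Peak tracks are divided into run 1 (top), run 2 and run 3 (bottom), dotted lines are start sites implied by the listed distances, and hatched boxes are rows within 1 kb that were listed under another gene name (CG15321 at nej, CG34251 and a small RNA gene at Crtc). Most, but not all, CREB and CRTC sites at CrebB-17A, CrebA, nej and crc lie beside each other. H3K9Ac at CrebB-17A sits only at the downstream start cluster, and Atf-2 has no binding site.

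The acetylation marks differed in where they lay along CrebB-17A. All 9 H3K9Ac peaks fell at the downstream cluster, 4152 to 4790 bp from the start at 18260960 of the transcript named in the table, and each of their 400 bp windows overlapped a CREB/CRTC site, defined as a pair of CREB and CRTC sites at most 200 bp apart. Overlaps with and gaps to a CREB/CRTC site were measured to the CRTC site of the pair. The 3 runs each had 3 of these H3K9Ac peaks. The highest score, the peak caller's own measure without a fixed range, was 4.01 in run 1, 6.57 in run 2 and 4.86 in run 3, above 87.4%, 97.0% and 94.1% of the peaks of the same run. H4K16Ac peaks lay at both clusters. At the upstream start the best scores were 2.90, 2.81 and 1.38 in runs 1 to 3. At the downstream cluster they were 5.71, 3.45 and 2.71. H4K16Ac also covered 2 intronic stretches between the clusters in runs 1 and 2, where run 3 had no row. In all, 17 H4K16Ac peaks were listed at CrebB-17A, 8 of them within 200 bp of a CREB/CRTC site. Of 5912 genes with an H4K16Ac peak, 148 reached a higher score, and of 5109 genes with an H3K9Ac peak, 269 did.

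After spaced training, 2 windows of CrebB-17A were listed as increased for H4K16Ac and none for H3K9Ac. The first, chrX:18260572-18260972, covered the upstream starts and lay 32 bp from a CREB/CRTC site. The second, chrX:18265662-18266062, ended 93 bp before the start at 18266156 and lay 78 bp from a CREB/CRTC site. The first window was itself a row of run 2 in the H4K16Ac table (score 1.38) and the second of run 3 (score 2.71). The fold change and p-value columns of these lists are the authors' own comparison and were not used, so a listed increase is a listing here and not a tested change.

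nej, the fly CBP gene, carried 4 CREB and 3 CRTC sites within chrX:9578419-9580415. The CREB factors were 7.76, 10.22, 10.22 and 10.22, the 3 sites of equal factor lying on both sides of the start at 9579700 and 291 bp inside the start at 9580690. All 3 CRTC sites overlapped a CREB site. Their factors were 2.91, 4.64 and 4.64, so that 9.86% of all CRTC sites were below the first and 49.5% below the others, while 81.9% of all CREB sites were below 10.22. The CREB factors at nej were therefore in the upper part of their list. Its CRTC factor of 4.64 was about at the list median of 4.67, and the factor of 2.91 was low in the list. The factors of the CREB and CRTC lists come from separate antibodies and were compared only within each list.

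No row of any acetylation list was named nej. The rows at this place carried the name CG15321, an older tag that RefSeq now gives to nej, and this match was made after the data were examined. Under that name, 13 H3K9Ac and 11 H4K16Ac peaks were listed, in all 3 runs of both tables. The best H3K9Ac scores were 9.04, 8.59 and 6.57 in runs 1 to 3, above 99.1%, 98.9% and 97.8% of the peaks of the run, and only 98 of 5109 genes had a higher maximum. The best H4K16Ac scores were 3.70, 6.14 and 3.50, above 93.0%, 99.4% and 90.4%, with 97 of 5912 genes higher. Over the 3 runs together, the nej locus had higher maxima in both marks than the members listed under their own symbols, although CrebB-17A was higher for H4K16Ac in run 1. Both nej and CrebB-17A lie on the X chromosome, and the other members on autosomes. Flies of both sexes were used according to the study, and the part that the chromosome plays in these scores was not tested. The H3K9Ac stretches seen in all 3 runs lay upstream of the first start, at the second start and at the CREB/CRTC site farthest inside the gene, and 5 of the 13 H3K9Ac peaks and 6 of the 11 H4K16Ac peaks were within 200 bp of a CREB/CRTC site. No window was listed as increased under nej or CG15321.

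crc is the fly ATF4 gene, whose product drives the transcriptional response to amino acid shortage and endoplasmic reticulum stress. It was the single member with rows in all 6 lists, and the share of all named genes in all 6 lists was not computed. CREB and CRTC sites overlapped at 2 places on chromosome 2L. At 21314246-21314322, 37 bp upstream of the internal start at 21314359, the CREB factor was 9.42, and the CRTC site there had a factor of 5.48. At 21313234-21313302, 1057 bp upstream of that start, the factors were 6.56 for CREB and 2.43 for CRTC, and 3.06% of all CRTC sites were lower. No CREB or CRTC site named crc lay at its first start at 21310854.

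Acetylation at crc was spread over both starts and the intron between them. The 15 H3K9Ac peaks lay 420 to 6762 bp from the first start, with 5 in each run and best scores of 3.48, 3.63 and 3.96. A stretch at 21313318-21314176, between the CREB/CRTC sites, was seen in all 3 runs with scores of 2.27, 2.51 and 3.96. The window chr2L:21313546-21313946 within it was listed as increased for H3K9Ac after training. Its gap was 244 bp to the CREB site and 282 bp to the CRTC site of the nearest CREB/CRTC site. H4K16Ac was instead seen in all 3 runs at the first start, with best scores of 1.62, 2.38 and 2.76. The window listed as increased for H4K16Ac, chr2L:21310738-21311138, covered that start and lay 2098 bp from a CREB/CRTC site. The listed increases of the 2 marks at crc were thus near different starts of the gene.

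CrebA encodes a bZIP activator of secretory pathway genes. Its 2 CREB sites on chromosome 3L lay 692 and 113 bp upstream of the start at 15528513 and shared a factor of 8.39. CRTC sites overlapped both, with a shared factor of 5.87, and a further CRTC site 1006 bp upstream had a factor of 3.34 and was 264 bp from the nearest CREB site. H3K9Ac peaks were few and low, with 1, 1 and 2 peaks in runs 1 to 3 and best scores of 1.77, 1.85 and 1.68, above 34.4%, 37.6% and 34.8% of the peaks of the run. Their centres were 104 to 408 bp inside the gene, and 3 of the 4 were within 200 bp of a CREB/CRTC site. The 7 H4K16Ac peaks lay 1256 to 1871 bp upstream, beyond the binding sites listed for CrebA, with best scores of 1.81, 1.89 and 2.34. None was within 200 bp of a CREB/CRTC site. The nearest window, in run 3, ended at 15527458, close to the further CRTC site, which begins at 15527487. No window of CrebA was listed as increased for either mark.

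**Figure D2:**
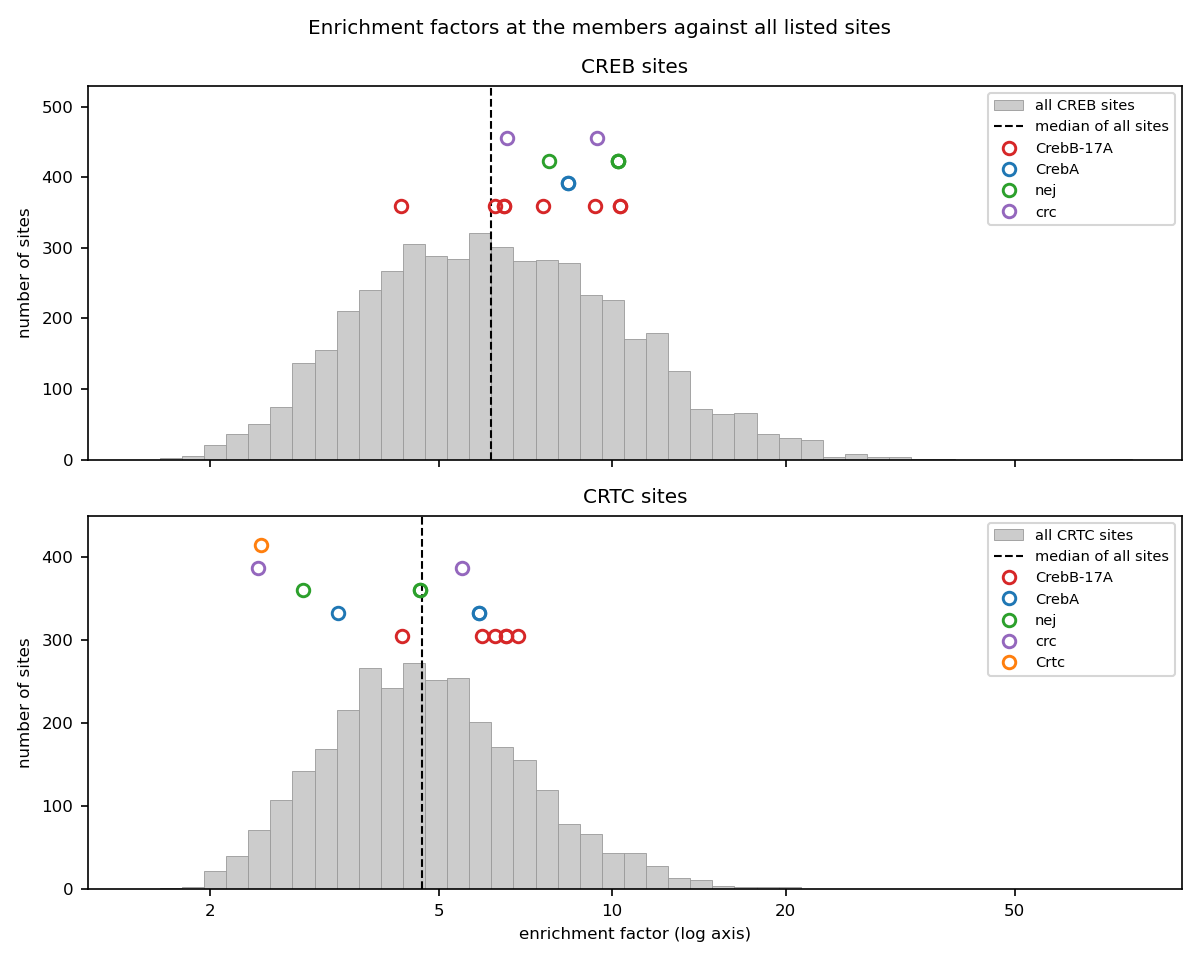
Enrichment factors (log axis) of all CREB sites (upper panel) and all CRTC sites (lower panel) as histograms of the number of sites, with the sites of the members as circles, 1 row per gene and offset vertically for display; identical values overlie each other. The CREB sites of the members run from 4.29 to 10.32, with 15 of the 16 above the list median of 6.17. Their CRTC sites run from 2.43 to 6.86 around a list median of 4.67, and Crtc has 1 CRTC site near the lower end.

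Crtc had 1 row in all 6 lists. This was a CRTC site at chr3L:17662312-17662368, listed at distance 0 from a start site, with a factor of 2.46 and a false discovery rate of 0.0056. Only 3.46% of CRTC sites had a lower factor, and 1602 of the 1671 genes in the list had a higher maximum. The nearest CREB site was 9978 bp away. It was listed for CG7484, the gene next to Crtc, with a CREB factor of 6.52, and the CRTC site over it had a factor of 16.53, which 5 of the 3002 CRTC sites exceeded. That site is assigned to CG7484, from whose start it is 4537 bp away, and is not a row of Crtc.

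Acetylation peaks within 1 kb of the Crtc site were listed for other genes. There were 5 H3K9Ac rows, in runs 2 and 3, named CG34251 or a small non-coding RNA gene that RefSeq places inside Crtc. Their best scores were 3.24 in run 2 and 3.01 in run 3, with no row in run 1. There were 2 H4K16Ac rows, named CG34251, with scores of 1.78 in run 1 and 2.63 in run 3. The CG34251 rows lay 3056 to 3368 bp upstream of the start of that gene. No window near the Crtc site was listed as increased.

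Atf-2, a bZIP factor that is phosphorylated by the stress kinase p38, had no CREB or CRTC site. The nearest CREB site, named NaCP60E, was 20874 bp from its rows and the nearest CRTC site, named Dll, 55846 bp. Both marks were present at its start. The 7 H3K9Ac peaks lay between 152 bp upstream and 472 bp downstream of the start at 20757590 on chromosome 2R, with best scores of 2.16, 1.38 and 2.45 in runs 1 to 3. Each run also had 1 H4K16Ac peak, with scores of 1.54, 1.41 and 2.26. The window chr2R:20757238-20757638 was listed as increased for H3K9Ac, and it corresponded to the lower of the run 1 peaks, with a score of 1.07. RefSeq now assigns the transcript named in these rows to CG44247 and gives the name Atf-2 to a separate gene, with CG16896 and CG30423 between them. In the peak tables the Atf-2 rows ended at 20758074 and those of CG16896 began at 20761608, so the rows lay on the side of CG16896 on which RefSeq places the present Atf-2.

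**Figure D3:**
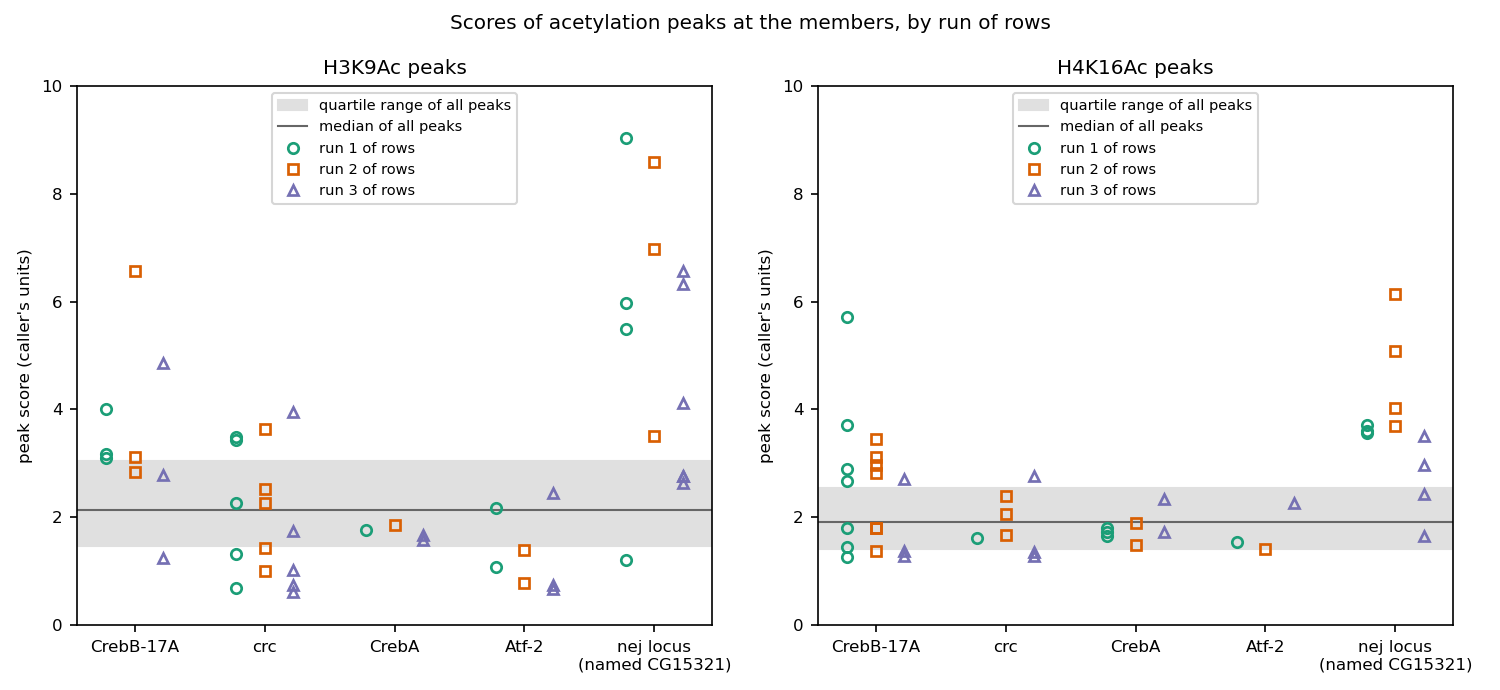
Scores of the single peaks in caller's units (y axis) of H3K9Ac (left) and H4K16Ac (right) at each member with peaks, marked by run of rows; the grey band runs from the lower to the upper quartile and the line the median of all peaks of the table, and the runs are not assigned to naive or trained flies. The nej locus reaches 9.04 for H3K9Ac and 6.14 for H4K16Ac, CrebB-17A reaches 6.57 and 5.71, and CrebA stays at or below 1.85 for H3K9Ac.

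Across the members, CREB sites were listed at 4 of 6 genes, compared with 32.7% of all named genes, and CRTC sites at 5 of 6, compared with 21.5%. A CREB/CRTC site was listed at 4 of 6, compared with 18.0%. Of the 16 CREB sites, 15 exceeded the list median of 6.17, whereas 8 of the 15 CRTC sites exceeded theirs of 4.67. Of the 15 CRTC sites, 12 had a CREB site at most 200 bp away, close to the 79.6% of all CRTC sites. In the other direction, 12 of the 16 CREB sites had a CRTC site that close, and the share of all CREB sites is not given here. Sites of 1 gene share enriched regions, so these counts are not independent, and no test was made over 6 chosen genes.

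For acetylation, the members' counts under their own symbols were near those of all genes. Peaks of H3K9Ac were listed at 4 of 6 members and peaks of H4K16Ac at 4 of 6 under their own symbol, compared with 65.8% and 76.1% of named genes. With the rows taken by position, which adds rows listed under other names, each became 6 of 6. No share of all genes by position was computed to set beside it. nej had no peak under its own symbol, as its peaks were named CG15321, and both names count among all named genes. Windows listed as increased were found at 2 members for H3K9Ac (crc and Atf-2), compared with 22.7% of genes, and at 2 for H4K16Ac (CrebB-17A and crc), compared with 17%, which in 6 genes is no result about the members. More of the peaks lay beside binding than in the tables as a whole. Of the 35 H3K9Ac peaks of members, 19 were within 200 bp of a CREB/CRTC site, compared with 12.4% of the table, and 9 of the 19 were at CrebB-17A. For H4K16Ac this was 11 of 34, compared with 10.6%. Peaks of the same window recur over the runs, and 4 of the 6 genes carry a CREB/CRTC site, so these counts describe the loci only. Of the 5 increased windows, 2 were that close, both at CrebB-17A and for H4K16Ac, compared with 10.5% of all H3K9Ac and 15.5% of all H4K16Ac windows listed as increased.

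Other bZIP genes gave a mixed picture. Of 15 further genes, 6 had a CREB site, 6 a CRTC site and 5 a CREB/CRTC site. The shares of all genes named in any list were 32.7%, 21.5% and 18.0%. Pdp1, an activator in the circadian clock, had 11 CREB and 13 CRTC sites, more than CrebB-17A. kay, the fly Fos gene, had 8 and 5 sites, and cnc, the fly Nrf2 gene, 7 and 3. Atf3 had 1 site of each factor, with factors of 15.82 for CREB and 6.38 for CRTC. Jra, the fly Jun gene, had none. Windows listed as increased for H3K9Ac were found at 6 of the 15 (Atf6, Jra, vri, Pdp1, CG6272 and CG18619) and for H4K16Ac at 2 (kay and cnc), compared with 22.7% and 17% of the genes named in any list. Only 11 of the 15 were so named. None of the 15 was in both lists of increased windows, and the share of all named genes in both was not computed. gt, slbo, tj and CG7786 were in none of the 6 lists.

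Of 20 genes of the pathways that control CREB and CRTC, 9 had a CREB site, 7 a CRTC site and 6 a CREB/CRTC site. Such sites were listed at 32.7%, 21.5% and 18.0% of the genes named in any list. dnc, the cAMP phosphodiesterase, had 6 CREB and 5 CRTC sites with maxima of 13.74 and 11.49. Pka-R2, a regulatory subunit of PKA, had 3 and 4. rut, the adenylyl cyclase, and CaMKII had no site. Sik2, of the kinase family that phosphorylates CRTC, had 1 CREB site with a factor of 4.37 and no CRTC site, and Sik3, listed as CG15072, had neither. Windows listed as increased were found at 2 of the 20 genes for H3K9Ac and at 9 for H4K16Ac, compared with 22.7% and 17% of the genes named in any list, which include 17 of the 20. 14-3-3zeta, whose protein binds phosphorylated partners, had 6 windows for H3K9Ac and 3 for H4K16Ac. Of 9 acetyltransferase genes other than nej, chm alone had a CREB site, with a factor of 7.72, and none had a CRTC site. The shares of all genes named in any list were 32.7% and 21.5%. Windows listed as increased were found at 3 of the 9 for H3K9Ac (Tip60, enok and Atac2) and at 1 for H4K16Ac (mof). This compares with 22.7% and 17% of the genes named in any list, which include 7 of the 9.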

How the data were processed

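Nuclei were immunopurified, chromatin was immunoprecipitated and libraries were sequenced, on a SOLiD instrument per the labels, whereas the study's methods name a MiSeq instrument for CREB and CRTC. Reads had been aligned to dm3, and peaks called relative to input by PICS and ERD. For each site the authors deposited the PICS false discovery rate and the ERD enrichment factor. This factor is a ratio of ChIP to background reads and is blank for 2 CREB sites. The deposited peak tables hold the PICS score and its false discovery rate. The lists of increased windows also hold the authors' mean fold change, SD and t-test p-value, which were not used.

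Rows were matched by exact symbol after removal of spaces. H3K9Ac peaks were widened to 400 bp around their centre, the width of the H4K16Ac windows. Gaps are bp between interval edges, and gaps to a CREB/CRTC site were taken to its CRTC site. Start sites were computed from positions and listed distances. Interval functions were tested on simulated data (300 of 300 gaps correct). The percentages given for all genes are over the 7766 genes named in any list. Gene lists (bZIP genes, CREB and CRTC signalling, acetyltransferases, cell markers) and members were chosen with earlier results of these data known. Genes outside the members were named where they gave the nearest row or were counted in a list. RefSeq release 6 served for names and neighbours only, and motif searches were not run. No test was made, since no replicate values were used. Alternatives were an enrichment factor of at least 5, overlap or 500 bp for CREB/CRTC sites, leaving out runs, windows seen in all 3 runs, scores above the median and rows by position (span of a member's rows widened by 1 kb). Matching by older names was added after seeing the data. Python 3 with pandas and numpy was used.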

Additional observations from a re-analysis of the deposited data

How the results depend on the processing

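With an enrichment factor of at least 5, the members with a CRTC site fell from 5 to 3 (CrebB-17A, CrebA and crc), as the sites of nej (at most 4.64) and Crtc (2.46) were below it. Members with a CREB/CRTC site were then 3 in place of 4, and members with a CREB site stayed at 4. The other alternatives left each count of members within 1.5 times its value. Direct overlap and a distance of 500 bp both gave 4 members with a CREB/CRTC site. Without run 1, run 2 or run 3, and with windows seen in all 3 runs, 4 members had a peak of each mark. With scores at or above the table median, 3 members had an H3K9Ac peak, CrebA being lost, and 4 an H4K16Ac peak. Rows by position gave 6 members for both marks and older names, added after seeing the data, 5. Counted over the genes of the peak table of the mark, the share of all genes with a window listed as increased was 30.2% in place of 22.7% for H3K9Ac and 19.7% in place of 17% for H4K16Ac. No paired analysis was possible because no result comes from a test and the rows carry no replicate number. Limits are that read depth was not analysed here, that gene names are those of the files, which name the nej and Crtc loci differently between lists, and that CREB and CRTC values come without a naive group or an error.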

Other observations

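Rows of neighbouring genes lay close to some members. Mio, which lies next to crc and encodes a bHLH factor of nutrient metabolism related to mammalian MondoA and ChREBP, had a window listed as increased for H3K9Ac at chr2L:21309374-21309774, which overlapped a CREB site and lay 3462 bp from a CREB/CRTC site. The same window was a row of run 3 with a score of 0.255. Its H3K9Ac peaks within 1 kb of the crc rows had scores of 2.42 and 2.42 in run 2 and 2.06 in run 3. Upstream of CrebA, a CRTC site named CG43248 at chr3L:15525526-15525582 had a factor of 4.95 and was 2189 bp from the nearest CREB site.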
